A study of Mus musculus with 36 samples.

Results

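The arms of the mouse microRNA miR-31, mmu-miR-31-5p and mmu-miR-31-3p (here miR-31-5p and miR-31-3p), were followed in the liver and the epididymal white fat (eWAT) of male mice. They were 2 of the 1966 mature microRNAs (miRNAs) in the count table, and both had exactly 1 line in it. They were chosen by their read counts, which were higher in liver than in eWAT, so the difference between the tissues is given here as a description, without a test. The comparisons between diet groups within a tissue, and of the difference between tissues across diet groups, did not serve to pick them.

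A miRNA is cut from a hairpin precursor, first by Drosha and then by Dicer, and 1 or both arms of the hairpin are loaded into an Argonaute protein, which the arm guides to partly complementary messenger RNAs. The seed, the stretch near the 5′ end of the arm, does most of the pairing. miR-31 has been studied mostly in skin, gut and mammary epithelium, in T cells and in tumours, where the messenger RNA of the hypoxia regulator FIH (HIF1AN) is among its reported targets. In cultured mesenchymal cells it has been reported to restrain the formation of fat cells through C/EBPα, a transcription factor of adipocyte differentiation.

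The sequences show which arm is which and how they lie in the hairpin. They are the RefSeq entries on GRCm38.p6, written 5′ to 3′, with the seed (bases 2 to 8) in capitals in each mature arm.
miR-31-5p: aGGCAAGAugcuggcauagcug
miR-31-3p: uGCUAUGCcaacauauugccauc
In the hairpin of 106 bases, the capitals mark the 5p arm (bases 28 to 49) and the 3p arm (bases 64 to 86).
Mir31 hairpin: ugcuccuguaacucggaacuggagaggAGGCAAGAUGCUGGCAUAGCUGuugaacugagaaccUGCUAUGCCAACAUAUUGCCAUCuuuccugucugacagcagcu
The hairpin lies on the minus strand at chr4:88910557-88910662. There, miR-31-5p takes up 88910614 to 88910635 and miR-31-3p 88910577 to 88910599. The annotation places it in exon 3 of 3 of the long intergenic RNA AL805899.1 (chr4:88909855-88938521, exon from 88909855 to 88910710). The nearest protein-coding gene, the interferon gene Ifne, lies 30356 bases away, and the nearest other miRNA hairpin, Mir491, 788432 bases away. Among 1679 mouse mature miRNAs of the RefSeq table, 0 others had the seed of either arm. The closest whole sequence stood 6 edits from miR-31-5p (miR-449c-5p) and 8 edits from miR-31-3p (miR-3963).

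Small RNA was sequenced from wild-type C57BL/6 male mice of the F1 generation, 24 weeks old, in 3 diet groups called HFLF, HF and LF. Each group held 6 libraries from liver and 6 from eWAT, 36 in all. Every animal ate chow to 6 weeks of age and then a specific diet for 18 weeks. The treatment text of all samples gives LFD, whereas the diet tags are HFLFD, HFD and LFD, and the labels leave it unsaid if a group is named for what the mouse ate or for what its father ate. The table's column names carry R, H or C, which were read as HFLF, HF and LF. Nothing says that the libraries of a group come from separate mice, and the spread that the p-values measure may therefore be technical.

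Library totals ran from 7866583 to 18832842 counts. The tissue labels matched their markers: 6 hepatocyte miRNAs, led by miR-122-5p, summed to between 430293 and 799068 CPM (counts scaled to a common library size) in liver and between 4479 and 9209 CPM in eWAT, and 5 adipose and smooth muscle miRNAs, led by miR-143-3p, to between 8770 and 18601 CPM in liver and between 153356 and 280545 CPM in eWAT. In liver, LF replicate 4 and HF replicate 6 stood apart, with 316 and 368 miRNAs detected against 540 to 633 in the other 16 livers, and the authors' deposited liver log2 table leaves both out. In eWAT, LF replicates 1 and 4 stood apart through epithelial miRNAs. The diet comparisons that rest on these libraries are given with and without them. Some means, folds and ranks are given with all libraries only.

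miR-31-5p was a moderately abundant miRNA of liver and a rare one of eWAT. CPM values of a group are scaled by trimmed mean of M values (TMM) factors within the tissue. In HFLF livers the lowest of 6 libraries had 276 CPM, the median was 330 CPM and the highest 413 CPM. HF livers ran from 253 CPM through a median of 294 CPM to 423 CPM, and LF livers from 254 CPM through 308 CPM to 329 CPM. All 18 livers thus lay within a narrow band, and the 3 diet groups overlapped. The mean was 342 ± 51.5 CPM in HFLF livers, 307 ± 60.3 CPM in HF livers and 302 ± 28.9 CPM in LF livers (SD, n = 6 each). The counts behind these values were between 1951 and 7034 per liver, and miR-31-5p ranked 75th of 868 detected miRNAs by mean level in HFLF livers, 78th in HF livers and 78th of 858 in LF livers. The highest liver, HF replicate 6, had 423 CPM under TMM factors and 319 CPM by its library total. The authors' deposited log2 values of miR-31-5p ran from 8.05 to 9.07 over their 16 livers, with a median of 8.59.

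**Figure D1:**
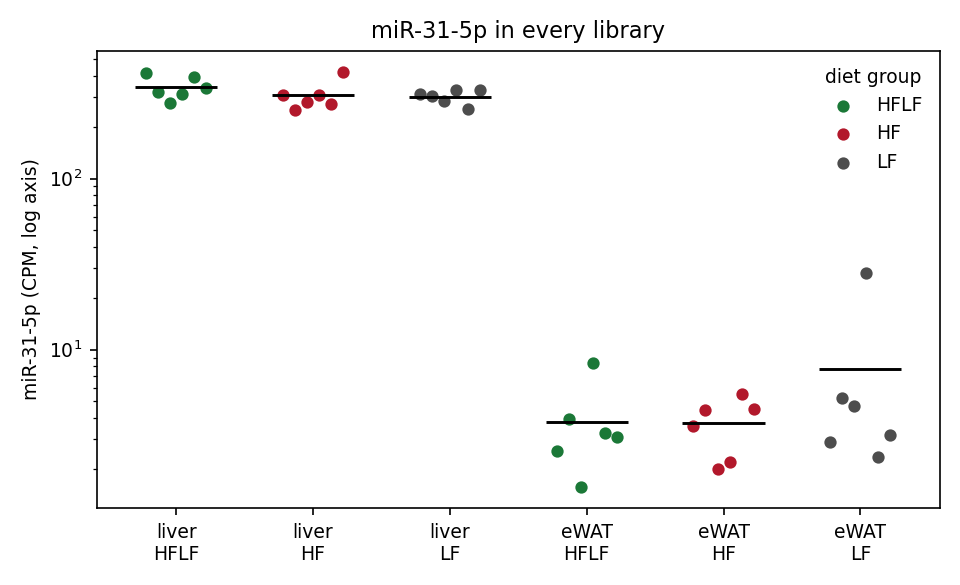
miR-31-5p in CPM (log axis, scaled by TMM factors within each tissue) in every library of the 3 diet groups of liver and eWAT, with points for libraries and a bar at the mean of each group. The 18 livers lie between 253 and 423 CPM, 17 eWAT libraries between 1.57 and 8.32 CPM, and eWAT LF replicate 4 stands at 28.0 CPM.

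In HFLF eWAT, miR-31-5p ran from 1.57 CPM through a median of 3.17 CPM to 8.32 CPM. HF eWAT ran from 2.01 CPM through 4.01 CPM to 5.54 CPM, and LF eWAT from 2.35 CPM through 3.93 CPM to 28.0 CPM. Here too the diet groups overlapped, and 1 library, LF replicate 4, was far above all the rest. The group means were 3.79 ± 2.36 CPM in HFLF, 3.71 ± 1.39 CPM in HF and 7.72 ± 9.99 CPM in LF eWAT (SD, n = 6 each). Without replicate 4 the LF mean was 3.66 ± 1.23 CPM (SD, n = 5). The counts were low, from 20 to 136 per library in 17 eWAT libraries and 262 in LF replicate 4, and miR-31-5p ranked 399th of 1087 miRNAs in HFLF eWAT, 420th of 1112 in HF eWAT and 369th of 1124 in LF eWAT. The authors' deposited eWAT log2 table, with 180 miRNAs, does not list it. By mean level the groups stood in the order HFLF liver, HF liver, LF liver, LF eWAT, HFLF eWAT and HF eWAT. Within a tissue, neighbours in that order differed by less than the larger of their SDs. The place of LF eWAT rested on replicate 4: without it, the LF mean of 3.66 CPM was the lowest in eWAT.

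The step between LF liver and LF eWAT was the only one without overlap. With TMM factors over all 36 libraries, mean miR-31-5p was 534 CPM in liver and 2.50 CPM in eWAT of HFLF mice, 214-fold higher in liver. In HF mice the means were 447.5 CPM in liver and 2.47 CPM in eWAT, or 181.5-fold higher in liver, and in LF mice 459 CPM in liver and 4.99 CPM in eWAT, or 91.9-fold. Scaling by library totals gave 98.7-fold, 80.3-fold and 37.4-fold, a choice that moved the median of all miRNAs by -1.11, -1.18 and -1.28 on the log2 scale. The fitted liver-over-eWAT log2 differences, 7.73 in HFLF, 7.50 in HF and 6.53 in LF, were the 11th, 12th and 15th highest of 681 miRNAs. The median of those 681 was -0.27, -0.48 and -0.60. Without eWAT LF replicate 4, the LF value was 7.63. A bulk library cannot tell fewer cells with the miRNA from less of it per cell, so none of these values says which cells of the liver carried miR-31-5p.

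Hepatocyte miRNAs were also counted in eWAT, some at a lower and some at a higher share of their liver level than miR-31-5p. By library totals, the median eWAT value of miR-31-5p was 1.05% of its median in liver. The same share was 0.265% for miR-122-5p, which makes up much of the liver's miRNA and had 137 to 3092 CPM in eWAT, 0.330% for miR-802-5p and 0.852% for miR-192-5p, and it was 1.66% for miR-194-5p, 16.6% for miR-101b-3p and 32.0% for miR-148a-3p. By means, the share was 1.59% for miR-31-5p and 1.76% for miR-192-5p. The part of liver RNA in the eWAT counts of miR-31-5p was not tested.

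Whether liver miR-31-5p differed between diet groups was tested in edgeR's quasi-likelihood fit over 478 liver miRNAs. It did not pass the threshold, an adjusted p under 0.05, in any of the 3 comparisons. The log2 difference was 0.18 ± 0.15 for HFLF against LF (SE, adjusted p = 0.989), 0.15 ± 0.15 for HFLF against HF (adjusted p = 0.999) and 0.03 ± 0.15 for HF against LF (adjusted p = 0.998). The last of these was -1.91e-06 with DESeq2 size factors, in effect no difference, and -0.07 without LF replicate 4 and HF replicate 6. Without those livers HFLF against HF gave 0.26 ± 0.11 (SE, edgeR, unadjusted p = 0.0208, adjusted p = 0.986, with 0.952 to 1.00 over all alternatives). HFLF against LF gave 0.19 ± 0.11 in the same fit (SE, edgeR, unadjusted p = 0.0787, adjusted p = 0.686). Of the 478 miRNAs tested in liver, 0.0% passed in any comparison by edgeR or DESeq2, with unadjusted edgeR p under 0.05 for 14, 5 and 16 miRNAs in the same order. HFLF and LF values overlapped, as did those of the other pairs, against 0.209%, 0.209% and 0.418% of all tested miRNAs whose groups did not overlap.

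In eWAT, miR-31-5p did not pass the threshold either. The fitted log2 difference was -1.02 ± 0.56 for HFLF against LF (SE, adjusted p = 0.425), -1.05 ± 0.56 for HF against LF (adjusted p = 0.719) and 0.03 ± 0.56 for HFLF against HF (adjusted p = 0.997). Without LF replicate 4 the first 2 became 0.01 ± 0.41 and -0.02 ± 0.41, so the lower fitted level in HFLF and HF eWAT was there only with that 1 library in the fit. Over 638 eWAT miRNAs, 0.0% passed by edgeR in any of the 3 comparisons, with unadjusted p under 0.05 for 98, 49 and 21 miRNAs in the order HFLF against LF, HF against LF and HFLF against HF. DESeq2 called 33, 16 and 0 of them, without miR-31-5p. Its groups overlapped in all 3 eWAT comparisons, where 0.157%, 0.0% and 0.0% of all tested miRNAs did not.

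**Figure D2:**
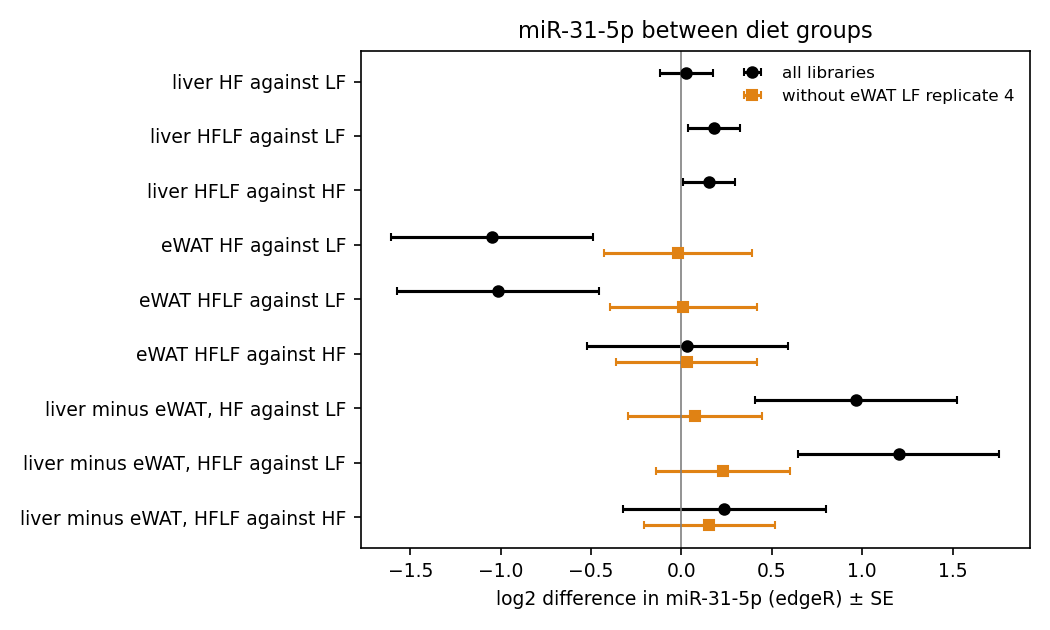
Log2 difference in miR-31-5p between diet groups (points, with bars of 1 SE, from edgeR's quasi-likelihood fits) within liver, within eWAT, and for the difference between the tissues. Black points hold all libraries and orange squares leave out eWAT LF replicate 4; the eWAT values against LF are -1.05 and -1.02 with that library and -0.02 and 0.01 without it.

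The library that carried the eWAT difference also carried epithelial miRNAs. miR-205-5p, a miRNA of basal and stratified epithelium, had 2929 CPM in LF replicate 4 and 76.8 CPM in LF replicate 1, against 1.54 to 17.7 CPM in the other 16 eWAT libraries. miR-200c-3p, of the family that holds epithelial cells in their state by repressing ZEB factors, had 11347 CPM in LF replicate 4 and 3196 CPM in LF replicate 1, against 8.48 to 57.7 CPM in the other 16. Of the 10 epithelial miRNAs on the marker list, 9 were higher in LF replicate 4 than in any of the other 16 libraries. The exception was miR-203-3p, with 1529 CPM in LF replicate 4, 1671 CPM in LF replicate 1 and 1850 to 3118 CPM in the other 16, where it made up most of the list's sum. That sum was 29007 CPM in LF replicate 4, 18804 CPM in LF replicate 1 and between 2088 and 3267 CPM in the other 16 libraries. miR-141-3p was at 0 in 2 eWAT libraries and miR-96-5p in 5, and the other 8 markers were counted in all 18.

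High epithelial miRNAs did not come with high miR-31-5p in every library. In LF replicate 1, miR-31-5p stood at 2.88 CPM, inside the range of the other libraries. Its miR-200a-3p, miR-200b-3p (9123 against 6169 CPM), miR-429-3p and miR-203-3p were higher than in LF replicate 4. The rest of the epithelial list was lower in LF replicate 1: miR-205-5p (76.8 against 2929 CPM), miR-200c-3p, miR-141-3p, miR-183-5p, miR-96-5p and miR-182-5p. In HFLF replicate 4, with the second highest miR-31-5p of eWAT (8.32 CPM), miR-205-5p was the highest of the 16 libraries other than LF replicates 1 and 4, at 17.7 CPM, and 7 of the 9 epithelial markers other than miR-203-3p lay above their median over those 16. All 9 were lower there than in LF replicate 4, with miR-200c-3p at 17.3 CPM. In HFLF replicate 4, miR-200c-3p and miR-182-5p lay below their medians, and some others lay barely above, such as miR-141-3p (0.673 against 0.571 CPM). The same count was not made for other libraries or other miRNAs, so 7 of 9 has no scale. The 12 epididymis and germ cell miRNAs on the marker list had a sum of 6150 CPM in LF replicate 1 and 962 CPM in LF replicate 4, against 21.1 to 454 CPM in the other 16. The part of epithelial or epididymal cells in the miR-31-5p value was not tested.

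**Figure D3:**
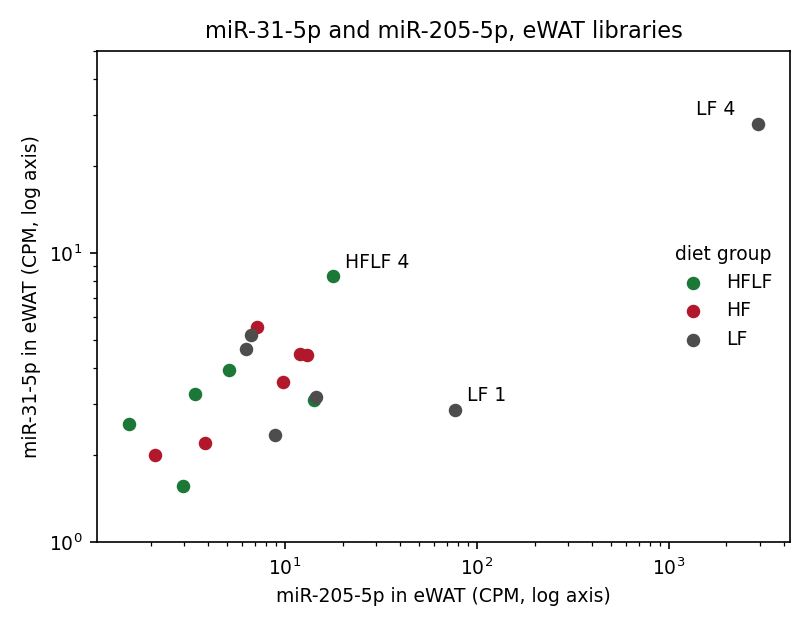
miR-31-5p against miR-205-5p in the 18 eWAT libraries (both in CPM on log axes, points coloured by diet group). LF replicate 4 lies at 2929 CPM of miR-205-5p and 28.0 CPM of miR-31-5p, LF replicate 1 at 76.8 and 2.88 CPM, and HFLF replicate 4 at 17.7 and 8.32 CPM.

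The same library set the difference between the tissues across diet groups. The liver-minus-eWAT log2 difference in miR-31-5p was greater by 1.20 ± 0.56 in HFLF than in LF mice (SE, edgeR, unadjusted p = 0.0382, adjusted p = 0.356), by 0.96 ± 0.56 in HF than in LF mice (adjusted p = 0.539) and by 0.24 ± 0.56 in HFLF than in HF mice (adjusted p = 1.00). None passed the threshold. Without eWAT LF replicate 4 the 3 values were 0.23 ± 0.37, 0.08 ± 0.37 and 0.15 ± 0.36. Among all 681 miRNAs, 1.91% passed for HFLF against LF, 2.5% for HF against LF and 0.0% for HFLF against HF. The last had 58 miRNAs at an unadjusted p under 0.05 and 1 call by DESeq2. The 13 calls for HFLF against LF took in 9 of the 10 epithelial markers and miR-375-3p, and the 17 calls for HF against LF took in 7 of the 10. miR-200c-3p, for example, differed by 7.07 ± 1.47 in HFLF against LF mice (SE, adjusted p = 0.00820) and by 6.53 ± 1.45 in HF against LF mice (adjusted p = 0.0168). Without LF replicate 4, 4 and 3 of the 10 epithelial markers passed, among 5 and 4 of all 718 miRNAs. With eWAT LF replicates 1 and 4 and the outlying pair of livers left out, 0 of 10 passed in either comparison, with 1 and 0 at an unadjusted p under 0.05. Of all 745 miRNAs in those fits, 0 and 1 passed.

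miR-31-3p, the other arm, was rarely counted. Its counts were 9, 9, 1, 17, 0 and 0 in HFLF livers 1 to 6, 0, 6, 0, 0, 9 and 63 in HF livers, and 0, 0, 0, 0, 0 and 19 in LF livers. So 8 of 18 livers had any count, 133 in all, and HF replicate 6 alone held 63 of them. All 18 eWAT libraries had 0, which allows up to 0.0124 CPM over the tissue (3 counts of its total, counting error only). The mean was 0.504 ± 0.535 CPM in HFLF livers, 0.895 ± 1.75 CPM in HF livers and 0.204 ± 0.499 CPM in LF livers (SD, n = 6 each), with overlap of all 3 groups. Without replicate 6 the HF mean was 0.189 CPM. At these counts miR-31-3p did not enter the fits, so no diet comparison of its level was tested. Pooled over the liver group, it stood above a limit of 3 counts over the eWAT group by 14.6-fold in HFLF mice, 20.1-fold in HF mice and 7.59-fold in LF mice by library totals. With TMM factors over all 36 libraries these were 32.1-fold, 44.7-fold and 18.5-fold. The limit covers counting error in eWAT only. The spread between livers is not allowed for, so these folds are not lower bounds for the groups. Without HF replicate 6 the HF values were 4.89-fold by library totals and 10.9-fold with TMM, and without LF replicate 6 the LF livers were at 0 as well, which leaves no fold.

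The 5p arm thus made up nearly all of miR-31 in liver, with 74847 counts against 133, or 563 counts of miR-31-5p for each of miR-31-3p. The share of the 3p arm in both was 0.131% in HFLF livers (95% Wilson interval 0.0943% to 0.181%), 0.281% in HF livers (0.225% to 0.351%) and 0.0966% in LF livers (0.0619% to 0.151%). Without HF replicate 6 the HF share was 0.0692% (0.0420% to 0.114%), and without LF replicate 6 the LF share was 0 of 14535 counts. Over all livers but HF replicate 6 there were 983 counts of miR-31-5p for each of miR-31-3p. These intervals cover counting error only, and the libraries varied more than that. HFLF replicate 6 had the most miR-31-5p of all livers, 7034 counts, and 0 of miR-31-3p, where the pooled share would give 12.5. HF replicate 6 had 6016 and 63, where it would give 10.7. In eWAT, the 1131 counts of miR-31-5p would come with 2.01 of miR-31-3p at the liver's share, so the 0 found there cannot be told apart from the same share of arms.

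**Figure D4:**
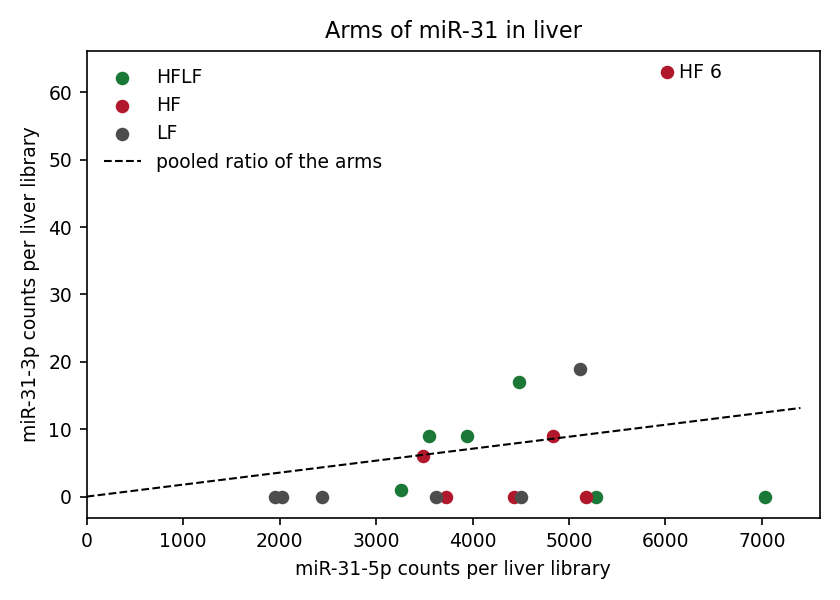
Counts of miR-31-3p against counts of miR-31-5p in each of 18 livers, coloured by diet group, with a dashed line at the pooled ratio of the arms. In 10 livers miR-31-3p is at 0, and HF replicate 6 stands at 63 counts.

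The log2 ratio of the 5p to the 3p arm, with 0.5 added to both counts, averaged 10.58 ± 2.55 in HFLF livers, 10.66 ± 2.83 in HF livers and 11.69 ± 1.85 in LF livers (SD, n = 6 each). HFLF was below LF by a log2 difference of -1.11 (2-sided exact permutation test, p = 0.424, adjusted over 3 comparisons 0.701), HF differed from LF by -1.04 (exact p = 0.468, adjusted 0.701) and HFLF from HF by -0.08 (exact p = 0.937, adjusted 0.937). With counts of 0 in 10 livers the ratio depends on the added 0.5. In those livers it follows the count of miR-31-5p, and so the library's depth. The tests therefore cannot decide whether use of the arms differed between diet groups. For scale, the 90 other miRNAs with between 100 and 200 counts over all livers were at 0 in a median of 7 livers, and 10 of the 90 were at 0 in 10 or more, as miR-31-3p was.

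miR-455, also higher in liver than in eWAT, divides its arms the other way. Its 5p arm made up 3.28% of both arms in liver (95% Wilson interval 3.22% to 3.35%) and 1.74% in eWAT (1.62% to 1.88%), against 99.8% in liver (99.8% to 99.9%) and 100% in eWAT (99.7% to 100%) for miR-31. The counts are pooled over the libraries of a tissue, and the intervals cover counting error only. They do not measure the spread between libraries, so the arm shares of the tissues were not compared. Liver LF replicate 4, which stood apart, is included, with 780 counts of miR-455-5p. By read counts, the more abundant arm was the 5p arm of miR-31 and the 3p arm of miR-455 in both tissues. Loading into Argonaute was not measured.

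The miRNAs whose levels moved most like miR-31-5p over the 18 livers, among 221 with a mean of at least 10 CPM, were miR-671-5p (Pearson r of log2 CPM 0.70), miR-378a-5p (r = 0.68), miR-130a-3p (r = 0.67), miR-107-3p (r = 0.65) and miR-221-3p (r = 0.64). The 95th percentile of r over the 221 was 0.57, as it was over the 336 compared in eWAT. Without HF replicate 6 and HFLF replicate 1, the livers farthest from the median of miR-31-5p, these became 0.48, 0.41, 0.47, 0.42 and 0.29. Scaled by library totals they were 0.28, 0.77, 0.26, 0.24 and 0.54 over all 18 livers. miR-378a-5p, from the gene of the metabolic coactivator PGC-1β, was the 1 of the 5 that did not drop under library totals. All points share the libraries' depth and factors.

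Over the 18 eWAT libraries, the most alike were miR-205-5p (r = 0.79), miR-184-3p (r = 0.76), miR-196b-5p (r = 0.71), miR-183-5p (r = 0.71) and miR-182-5p (r = 0.68). miR-205-5p, miR-183-5p and miR-182-5p stand on the epithelial list. Without LF replicate 4 and HFLF replicate 4 the 5 values were 0.32, 0.38, 0.25, 0.24 and 0.23. That pair was picked as the farthest from the median of miR-31-5p, which by itself narrows the range and lowers r. By rank (Spearman) over all 18 eWAT libraries, the 5 correlations were 0.50, 0.48, 0.52, 0.59 and 0.49.

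Other miRNAs reported to act on adipocyte differentiation were read beside miR-31-5p, from a list that does not hold it. In the 6 diet comparisons, 0 of the 12 (liver) or 13 (eWAT) promoting miRNAs tested and 0 of the 8 (liver) or 10 (eWAT) restraining ones passed in edgeR, with at most 2 of either kind at an unadjusted p under 0.05. DESeq2 called 1 promoting miRNA, miR-204-5p, lower in HFLF and in HF than in LF eWAT, among its 33 and 16 calls over 638 miRNAs, and 0 in the other comparisons within a tissue. With TMM factors over all 36 libraries, miR-204-5p, named here after its values were seen, had 513 CPM in LF replicate 1 and 349 CPM in LF replicate 4 and between 51.0 and 119 CPM in the other 16 eWAT libraries. In edgeR without the libraries that stand apart, 0 of 13 promoting miRNAs had an unadjusted p under 0.05 in either comparison. The median log2 difference for HFLF against LF eWAT was -0.06 for the promoting and 0.10 for the restraining list, beside -0.04 for all 638 miRNAs.

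Between the tissues, 8 of 13 promoting miRNAs passed as higher and 3 as lower in liver than in eWAT of HFLF mice, where 48.6% of all 681 miRNAs passed, 131 higher and 200 lower. The counts were 9 and 3 in HF mice (49.6% of all, 120 higher and 218 lower) and 8 and 3 in LF mice (47.4% of all, 109 higher and 214 lower). Among 10 restraining miRNAs, 3 were higher and 4 lower in HFLF mice, 2 and 5 in HF mice, and 2 and 5 in LF mice. These splits follow the scaling: with library totals, 3, 3 and 1 promoting miRNAs were higher and 7, 7 and 8 lower, and 0 restraining miRNAs were higher and 6, 6 and 7 lower. Under that scaling the median log2 difference of all miRNAs was -1.39 in HFLF, -1.66 in HF and -1.87 in LF mice. The levels that follow are CPM scaled by TMM factors over all 36 libraries, unlike the levels within 1 tissue above. Of the promoting list, miR-148a-3p averaged 15204 ± 3768 CPM in liver and 2029 ± 299.8 CPM in eWAT of HFLF mice (SD, n = 6 each), while miR-143-3p, which acts in adipocytes and smooth muscle, averaged 20331 ± 5307 CPM in liver and 120837 ± 15242 CPM in eWAT. miR-204-5p was at 0 in all HFLF livers and averaged 69.9 ± 11.6 CPM in HFLF eWAT. Of the restraining list, to which miR-31-5p would belong by its reported role, miR-145a-5p averaged 230.3 ± 29.6 CPM in liver and 1043 ± 88.9 CPM in eWAT, and miR-33-5p, from an intron of the sterol regulator Srebf2, averaged 4.19 ± 1.60 CPM in liver and 0.736 ± 0.546 CPM in eWAT of HFLF mice. The liver-over-eWAT log2 difference in the same mice was 7.73 for miR-31-5p, which was chosen for it, and at most 2.91 (miR-148a-3p) among the tested members of both lists.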

How the data were processed

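The submitters' processing notes name cutadapt, Bowtie and the build GRCm38.p6, without versions or settings. The values tested were the authors' deposited read counts, 1 line for each pair of mature miRNA and precursor (2118 lines, 1966 mature miRNAs). The CPM columns deposited beside them and the authors' deposited log2 tables were not used for tests. For a miRNA with several lines the highest line was taken. Library totals ran from 7866583 to 18832842 counts. Replicates of a group differed by at least 61.8 chi-square per degree of freedom, so no library was a copy of another.

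Counts were tested in edgeR 4.0.16 (R 4.3.3) with TMM factors, filterByExpr (minimum count 10, minimum total 15), the robust quasi-likelihood F test and Benjamini-Hochberg adjustment over all miRNAs tested, with 18 libraries per tissue or all 36 for differences between tissues. DESeq2 1.42.0 was an alternative. Simulated 2-fold changes were recovered for 35.8% of changed miRNAs in liver, 43.9% in eWAT and 12.4% for the difference between tissues (HFLF against LF). Simulated 4-fold changes were recovered for 73.3%, 83.8% and 44.4%. Many miRNAs were changed at once, 179 of 441 tested in liver at 2-fold. So many true changes loosen the adjusted threshold, unlike in the diet comparisons within a tissue, where edgeR called none. The recovery rates are averages over the changed miRNAs and not the power for miR-31-5p. Its log2 difference for HFLF against LF liver had an SE of 0.15. The arm ratio (0.5 added to each count) was compared by a 2-sided exact permutation test over 924 assignments, whose smallest possible p is 0.00216, in liver only, since miR-31-3p was at 0 in all eWAT libraries. Reads from PCR, counted here without molecular identifiers, are not independent, so intervals and floors cover counting error only.

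The members, the marker lists and the adipocyte differentiation lists were chosen with earlier results of these data known. Both arms are named throughout. Other names are the 5 miRNAs most like miR-31-5p by Pearson r of log2 CPM (prior count 2, mean of at least 10 CPM) in each tissue, miR-455 and miR-200c-3p for scale, and members of lists. The same replicate number was not treated as a pair in the main fits. Across miRNAs, deviations of same-numbered liver and eWAT libraries of a diet group correlated between -0.208 and 0.143. Between diet groups within a tissue the range was -0.517 to 0.504. Low correlations do not show that the numbers are unpaired, and a replicate block was run as an alternative.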

Additional observations from a re-analysis of the deposited data

Results flagged for a closer look

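In 6 of 12 checks, each of 1 measure in 1 group of 6 libraries, 1 library lay far from the other 5. The measures were miR-31-5p, miR-31-3p and the log2 arm ratio. The threshold was meant to be passed by chance in about 1 in 20 checks. That rate does not hold for miR-31-3p or the arm ratio in LF livers, where only replicate 6 had any count of miR-31-3p. The checks also share libraries and counts, so 6 of 12 cannot be read as an excess over chance. miR-31-5p stood out in HF liver replicate 6 (423 CPM), a library with 368 detected miRNAs that has 319 CPM by its library total. It stood out in HFLF eWAT replicate 4 (8.32 CPM, from 136 counts). It also stood out in LF eWAT replicate 4 (28.0 CPM, from 262 counts), where miR-205-5p had 2929 CPM. miR-31-3p stood out in HF liver replicate 6 (4.43 CPM, from 63 counts) and in LF liver replicate 6 (1.22 CPM, from 19 counts, the only LF liver with any). The log2 arm ratio of LF liver replicate 6 (8.03) stood apart for the same 19 counts.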

How the results depend on the processing

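miR-31-5p passed no threshold in any diet comparison, within or between tissues, under any alternative run. For HF against LF liver its log2 difference, 0.03 as reported, was -1.91e-06 with DESeq2 size factors, -0.00206 with lines of a miRNA summed and -0.0672 without the 4 libraries that stand apart (-0.0735 to 0.0764 leaving out each library). For HFLF against HF eWAT it was -0.0436 by library totals and -0.28 with a replicate block (-0.40 to 0.18), and for HFLF against LF eWAT -1.44 to 0.0104, positive only without LF replicate 4. The replicate block gave -0.73 for HFLF against LF and -0.45 for HF against LF eWAT and changed no other direction. Between tissues, it was -0.0384 for HF against LF without the 4 libraries, and -0.00708 to 0.55 for HFLF against HF leaving out each library. Calls in eWAT were 33 (HFLF against LF) and 16 (HF against LF) with DESeq2, and 0 to 17 for HFLF against LF leaving out each library (12, 15 and 17 without LF replicates 2, 5 and 6). Calls between tissues for HFLF against LF were 28 with DESeq2, 0 without the 4 libraries, 0 with the block and 5 to 17 leaving out each library (5 without eWAT LF replicate 4, 6 without LF replicate 1). For HF against LF they were 35, 1 and 0 in the same order, 6 without a filter and 4 to 20 (4 without eWAT LF replicate 4, 8 without LF replicate 1), and for HFLF against HF 1 with DESeq2 and 0 to 1. The tissue log2 difference of miR-31-5p was 6.62 in HFLF, 6.32 in HF and 5.24 in LF by library totals, and in LF 7.51 without the 4 libraries and 6.33 to 7.63 leaving out each library. The arm ratio of HFLF against HF liver was 0.0896 with 2 added to each count, 1.11 from summed counts and -0.90 to 0.46 leaving out each library. In liver, HF miR-31-3p averaged 0.189 CPM without replicate 6. Library totals moved the median of all miRNAs by 0.15 for HFLF against LF liver, and by 0.15 (HFLF against LF) and 0.11 (HF against LF) for the differences between tissues. The cause of these shifts was not tested. Counts limit miR-31-3p: at 0 in all eWAT libraries it could not be compared there, and no arm ratio between tissues was run. The prior count of 0.5 for the correlations was chosen after seeing the data and moved them by little.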
